A study of Mus musculus with 9 samples.

Results

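The mRNA levels of 9 genes of the B cell receptor and the B lineage were followed in RNA libraries of mouse spleen naive CD4+ T cells, in which this receptor is not a defining component. The genes were Ighm, Igkc, Cd79a, Cd79b, Ms4a1, Cd22, Syk, Blnk and Pax5, taken by symbol from the 55487 gene IDs of the deposited files. All 9 were found. Poly(A) RNA was sequenced in 9 libraries, and the study asked what inhibiting IL-1b in the animal does to these T cells. The anti-IL-1b group had 3 libraries of cells from C57BL6/J mice of WT genotype given anti-IL-1b in vivo for 10 consecutive days. The MCC950 group had 3 libraries from mice of the same strain and genotype given MCC950, a small-molecule inhibitor of the NLRP3 inflammasome that lies upstream of IL-1b release, over the same 10 days. The untreated group had 3 libraries from C57BL6/J WT mice with no treatment, and no vehicle or control antibody is named for it. The labels give no sort or gate, age, sex or mouse of origin, and do not say whether each library stands for its own animal. Each p-value therefore reflects how far libraries of a group differ, a spread that could be purely technical.

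In a B cell, the membrane immunoglobulin binds antigen but cannot signal alone. It is carried by the Cd79a and Cd79b chains, whose tails are phosphorylated by Src family kinases and then bind the kinase Syk, which phosphorylates the adaptor Blnk. Pax5 is the transcription factor that sets and holds B cell identity. T cells use a parallel chain of proteins, in which Zap70 stands where Syk stands in B cells.

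Total expected counts ran from 14775375 to 16676626 in anti-IL-1b libraries, from 16769960 to 18497827 in MCC950 libraries and from 17335367 to 21394797 in untreated libraries. The T cell label was met in all groups. Cd4 averaged 517 ± 7.55 TPM in anti-IL-1b, 460 ± 9.4 TPM in MCC950 and 452 ± 14 TPM in untreated libraries (SD, n = 3 each). Cd3e, a CD3 chain of the T cell receptor complex, averaged 492 ± 15.2 TPM in anti-IL-1b, 496 ± 20.7 TPM in MCC950 and 385 ± 14.6 TPM in untreated libraries. TPM, a unit in which each library has the same total, is scaled for length and serves here to compare genes. CPM, the count relative to TMM-scaled library size, serves to compare libraries.

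All 9 genes were higher under each inhibitor than in untreated libraries. In anti-IL-1b against untreated, 9 of 9 rose at an adjusted p under 0.05 (edgeR's quasi-likelihood test), against 15.4% of the 13374 genes tested. In MCC950 against untreated, 9 of 9 rose as well, against 17.7% of genes tested. Among the 4963 tested genes with a mean under 10 CPM, where 8 of the 9 lie, 12.7% rose under anti-IL-1b and 11.6% under MCC950. No library of either inhibitor overlapped the untreated libraries for any of the 9, against 20.4% of genes tested higher without overlap in anti-IL-1b and 23.6% in MCC950. The median log2 fold change of the 9 was 2.88 in anti-IL-1b and 2.56 in MCC950, where the median over all genes tested was 0.0035 in anti-IL-1b and 0.012 in MCC950. At least 2-fold higher were 8 of the 9 in each comparison, all but Ighm, against 3.30% of genes tested in anti-IL-1b and 2.84% in MCC950. Both comparisons share the 3 untreated libraries, so they are not independent of each other. Fewer cells of a type and less RNA per cell cannot be told apart in these bulk samples.

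Levels other than that of Ighm were low. Only 4 of the 9, Ighm, Igkc, Cd79a and Cd79b, reached 0.577 CPM, the equivalent of 10 counts in a library of median size, in all 3 untreated libraries. Cd22 and Pax5 reached it in 2 untreated libraries, Ms4a1 and Syk in 1 and Blnk in 0. These 5 passed the filter on low counts with the help of the inhibitor libraries, where they are high, so the count of 9 of 9 is a description and carries no weight of its own.

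**Figure D1:**
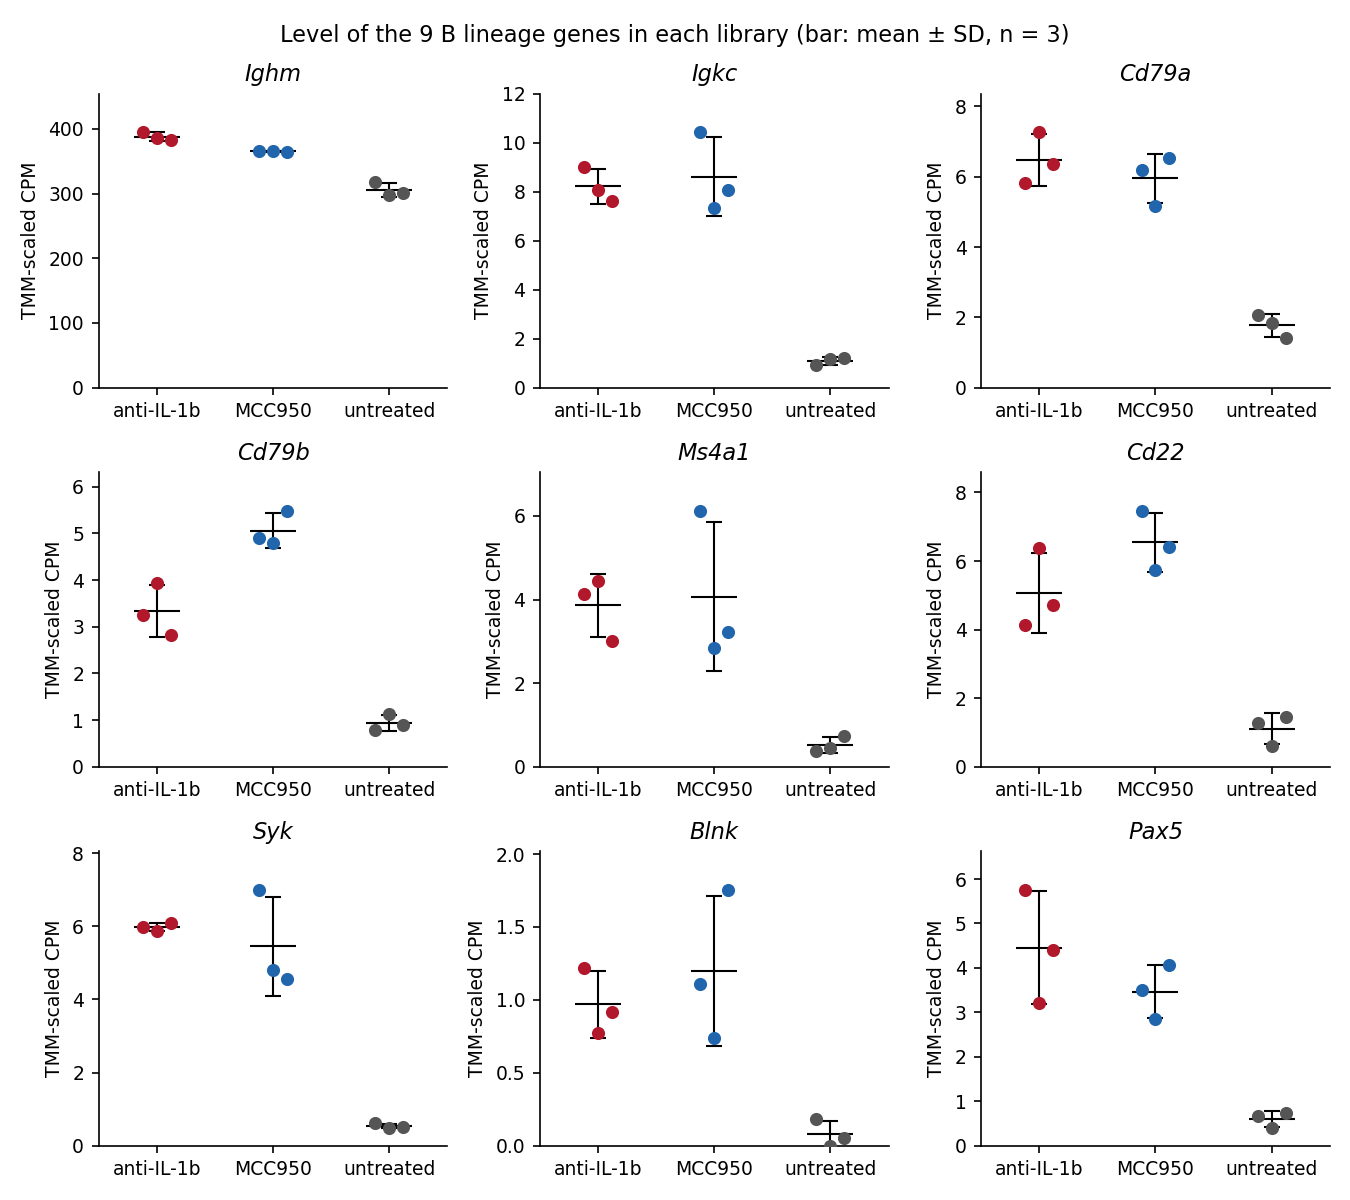
TMM-scaled CPM (linear axes from 0) of each of the 9 genes in the 3 libraries of the anti-IL-1b, MCC950 and untreated groups, with points for libraries and bars for the mean ± SD. For every gene the untreated points lie below all points of both inhibitors, and Ighm alone is already near 300 CPM in untreated libraries.

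Promoters are shown for 3 of the genes that moved together, and each holds a match to a motif of a factor known in B cells. Syk also held matches, given below, and its windows are not shown. RefSeq promoter windows of the GRCm38.p6 build, from 250 bases before to 50 after a start, were at hand for 5 of the 9 genes, namely Cd79a, Cd22, Syk, Blnk and Pax5, and not for Cd79b, Ms4a1, Ighm and Igkc. Capitals mark the matches, and all sequences read 5′ to 3′ on the gene's strand. The Cd79a window is chr7:24897247-24897546 on the plus strand, the Cd22 window chr7:30878979-30879278 on the minus strand and the Blnk window chr19:40994172-40994471 on the minus strand. By the gene positions given below, the Cd22 and Blnk windows lie wholly inside their genes, so the starts they use are internal ones.
Cd79a: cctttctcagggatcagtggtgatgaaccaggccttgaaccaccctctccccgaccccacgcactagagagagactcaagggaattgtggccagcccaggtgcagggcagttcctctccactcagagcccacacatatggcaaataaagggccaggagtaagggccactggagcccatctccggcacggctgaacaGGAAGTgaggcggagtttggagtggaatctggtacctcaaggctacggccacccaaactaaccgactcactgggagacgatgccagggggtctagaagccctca
Cd22: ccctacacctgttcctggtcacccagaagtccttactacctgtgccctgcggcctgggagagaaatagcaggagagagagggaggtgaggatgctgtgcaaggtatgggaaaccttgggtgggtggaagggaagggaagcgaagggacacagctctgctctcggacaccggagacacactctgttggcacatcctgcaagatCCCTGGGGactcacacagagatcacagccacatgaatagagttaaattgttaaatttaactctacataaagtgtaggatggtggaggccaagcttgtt
Blnk: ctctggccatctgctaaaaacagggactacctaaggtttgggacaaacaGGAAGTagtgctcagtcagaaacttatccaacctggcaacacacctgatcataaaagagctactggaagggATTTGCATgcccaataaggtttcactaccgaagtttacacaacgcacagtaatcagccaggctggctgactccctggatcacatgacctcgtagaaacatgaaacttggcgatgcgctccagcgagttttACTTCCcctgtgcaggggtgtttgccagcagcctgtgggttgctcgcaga

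Searched on both strands were the octamer ATTTGCAT bound by Oct factors, the EBF core CCCNNGGG, the ETS core GGAAGT and the E-box CAGCTG. The octamer and the ETS core did not overlap in these windows. Blnk held the octamer at position -130 from its start and the ETS core at positions -201 and 1. The octamer is found in 1.74% of all 32851 RefSeq promoter windows. Cd79a held the ETS core at position -54, a match shared by 23.8% of all windows. Cd22 held CCCTGGGG, a form of the EBF core, at position -48, and 13.7% of all windows hold that core. Syk has 2 windows, with the E-box at position 30 in one and the ETS core at position 3 in the other. The E-box is found in 16.3% of all windows. None of the 4 motifs was found in the Pax5 window. These are matches of letters and not sites of binding.

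Ighm encodes the constant region of the mu heavy chain (IG_C_gene, chr12:113418558-113422730, minus strand, GENCODE M21 on GRCm38). It stood apart from the other 8 genes in level and in change. Its level was 395, 386 and 383 CPM in the anti-IL-1b libraries, 366, 366 and 365 CPM in the MCC950 libraries and 318, 298 and 300.5 CPM in the untreated libraries. The groups did not overlap and the spread inside each was narrow. Its log2 fold change was 0.35 ± 0.032 (SE) in anti-IL-1b against untreated, with an adjusted p of 1.42e-11 by edgeR's quasi-likelihood test. In MCC950 against untreated it was 0.26 ± 0.032, with an adjusted p of 1.38e-08. Under the alternatives the value ran from 0.33 to 0.52 in anti-IL-1b and from 0.24 to 0.37 in MCC950, the highest in TPM for anti-IL-1b and with library totals for MCC950. By rank of log2 fold change among the 13374 genes it was at rank 2438 in anti-IL-1b and 3118 in MCC950. The other 8 genes ranked from 72 to 282 in anti-IL-1b and from 49 to 249 in MCC950.

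Igkc encodes the kappa light chain constant region (IG_C_gene, chr6:70726435-70726966, plus strand). It was counted 155, 125 and 116 times in anti-IL-1b libraries, 179, 139 and 147 times in MCC950 libraries and 15, 24 and 23 times in untreated libraries. Every inhibitor library thus held far more kappa counts than any untreated library. The log2 fold change was 2.89 ± 0.24 in anti-IL-1b (adjusted p = 4.81e-13) and 2.95 ± 0.23 in MCC950 (adjusted p = 2.1e-13), both by edgeR's quasi-likelihood test. A heavy chain and a light chain are needed in equal number for a receptor, and the mRNAs of these 2 chains were far from equal. The ratio of Ighm to Igkc in TPM was 10.2, 11.3 and 11.8 in anti-IL-1b libraries, 8.01, 11.2 and 10.2 in MCC950 libraries and 77.7, 57.4 and 56.7 in untreated libraries. The untreated ratios lay above all ratios of the inhibitor groups. Ighm made up 90.6% to 91.4% of the counts of the 9 genes in anti-IL-1b libraries, 88.7% to 91.4% in MCC950 libraries and 97.7% to 98% in untreated libraries.

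Rearranged receptor mRNA carries a V segment, and few counts fell on V segments. Over all 255 annotated immunoglobulin V, D and J segments, the summed count was 102 to 143 in anti-IL-1b libraries, 102 to 177 in MCC950 libraries and 15 to 25 in untreated libraries. Ighm alone had 5835 to 6802 counts in anti-IL-1b, 6277 to 6944 in MCC950 and 5219 to 6024 in untreated libraries. In counts, which are not scaled for length, the segments and Igkc were of like order, and Ighm was far above both in every group. Transcripts of the mu constant region without a rearranged V segment are known from T cells. Their part in the Ighm level was not tested.

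Cd79a and Cd79b encode the paired signalling chains of the receptor. Cd79a (protein coding, chr7:24897381-24902197, plus strand) had 100, 113 and 97 counts in anti-IL-1b libraries, 106, 98 and 119 in MCC950 libraries and 34, 37 and 27 in untreated libraries. It averaged 6.48 ± 0.739 CPM in anti-IL-1b, 5.96 ± 0.703 CPM in MCC950 and 1.77 ± 0.333 CPM in untreated libraries (SD, n = 3 each). Its log2 fold change, 1.87 ± 0.24 in anti-IL-1b (adjusted p = 4.16e-08) and 1.75 ± 0.24 in MCC950 (adjusted p = 1.58e-07), was near the lower end of the 8 genes other than Ighm. Cd79b (protein coding, chr11:106311341-106314762, minus strand) had 56, 61 and 43 counts in anti-IL-1b libraries, 84, 91 and 100 in MCC950 libraries and 13, 23 and 17 in untreated libraries. Here the MCC950 libraries lay above the anti-IL-1b libraries, and both above the untreated ones. Cd79b rose by a log2 fold change of 1.81 ± 0.31 in anti-IL-1b (adjusted p = 1.23e-05) and 2.41 ± 0.31 in MCC950 (adjusted p = 3.35e-08).

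Ms4a1 and Cd22 are B cell surface proteins. Ms4a1 encodes CD20, a four-pass membrane protein (chr19:11249675-11266241, minus strand). It was counted 71, 69 and 46 times in anti-IL-1b libraries, 105, 54 and 59 times in MCC950 libraries and 6, 9 and 14 times in untreated libraries. MCC950 replicate 1 was the highest of the 9 libraries, and the inhibitor groups overlapped each other. Ms4a1 rose by a log2 fold change of 2.88 ± 0.39 in anti-IL-1b (adjusted p = 1.04e-07) and 2.95 ± 0.39 in MCC950 (adjusted p = 5.41e-08). Cd22 encodes an inhibitory lectin that binds sialic acid and recruits phosphatases to the receptor (chr7:30865402-30880342, minus strand). It had 71, 99 and 72 counts in anti-IL-1b libraries, 128, 109 and 117 in MCC950 libraries and 20.7, 12 and 28 in untreated libraries. Cd22 rose by 2.19 ± 0.29 in anti-IL-1b (adjusted p = 8.72e-08) and 2.56 ± 0.29 in MCC950 (adjusted p = 1.87e-09) on the log2 scale.

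The deposited TPM values of Cd22 were less far apart, at 2.11, 2.84 and 5.3 in anti-IL-1b libraries, 3.67, 2.58 and 6.19 in MCC950 libraries and 2.53, 0.84 and 2.41 in untreated libraries. In TPM the anti-IL-1b and untreated groups overlapped, which they did not in counts. With limma on log2(TPM + 1) Cd22 passed the threshold in neither comparison.

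Syk and Blnk carry the signal on from the receptor. Syk (protein coding, chr13:52583173-52648792, plus strand) was counted 103, 91 and 93 times in anti-IL-1b libraries, 120, 91 and 83 times in MCC950 libraries and 10, 10 and 10 times in untreated libraries. Its log2 fold change of 3.46 ± 0.31 in anti-IL-1b (adjusted p = 4.05e-12) and 3.32 ± 0.31 in MCC950 (adjusted p = 1.13e-11) was the largest among the genes with at least 10 counts in every library. Zap70, its T cell counterpart, averaged 229 ± 9.82 CPM in anti-IL-1b, 250.2 ± 5.51 CPM in MCC950 and 216 ± 11.3 CPM in untreated libraries. The ratio of Zap70 to Syk in TPM was 88.9 to 112 in anti-IL-1b, 101 to 140 in MCC950 and 810 to 1340 in untreated libraries, so Syk stayed the lesser kinase by far in all 9. Zap70 did not pass the threshold in anti-IL-1b (log2 fold change 0.083, adjusted p = 0.103) and rose by 0.21 in MCC950 (adjusted p = 3.01e-05).

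Blnk encodes the adaptor that links Syk to phospholipase C (chr19:40928927-40994535, minus strand), and it was the scarcest of the 9. It was counted 21, 12 and 14 times in anti-IL-1b libraries, 19, 14 and 32 times in MCC950 libraries and 3, 0 and 1 times in untreated libraries. With 4 untreated counts in all, the size of its change is poorly known. The ratio of counts per depth was 13.7 in anti-IL-1b against untreated, with a 95% interval of 5 to 52.2 for counting error alone. In MCC950 against untreated it was 16.7, with an interval of 6.21 to 63.1. Without untreated replicate 1 the log2 fold change was 4.92 in anti-IL-1b and 5.22 in MCC950, and without untreated replicate 2 it was 3.02 in anti-IL-1b and 3.32 in MCC950, where all libraries gave 3.61 in anti-IL-1b and 3.91 in MCC950. The adjusted p was 0.000537 in anti-IL-1b and 0.000145 in MCC950 by edgeR's quasi-likelihood test.

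Pax5 (protein coding, chr4:44524757-44710487, minus strand) was counted 99, 50 and 67 times in anti-IL-1b libraries, 60, 54 and 74 times in MCC950 libraries and 11, 8 and 14 times in untreated libraries. It rose by a log2 fold change of 2.89 ± 0.36 in anti-IL-1b (adjusted p = 2.24e-08) and 2.53 ± 0.36 in MCC950 (adjusted p = 3.87e-07). In TPM the values were 1.24, 4.18 and 1.96 in anti-IL-1b, 1.18, 0.53 and 2.06 in MCC950 and 0.45, 0.39 and 0.13 in untreated libraries, and with limma on log2(TPM + 1) Pax5 passed the threshold in anti-IL-1b and not in MCC950.

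In order of mean TPM, Ighm led in every group, at 434 ± 9.49 in anti-IL-1b, 390.1 ± 1.97 in MCC950 and 302 ± 12.1 in untreated libraries. Igkc followed, at 39.3 ± 3.87 in anti-IL-1b, 40.6 ± 7.01 in MCC950 and 4.81 ± 0.644 in untreated libraries. Below them came Cd79a, at 7.86 ± 0.895 TPM in anti-IL-1b, 6.94 ± 0.803 in MCC950 and 1.93 ± 0.374 in untreated libraries. Cd79b stood beside it, at 4.94 ± 0.958 in anti-IL-1b, 7.36 ± 0.532 in MCC950 and 1.3 ± 0.243 in untreated libraries. Cd79a and Cd79b did not differ beyond their spread in MCC950 libraries. Mean levels of Cd22, Pax5, Ms4a1 and Syk ranged from 1.26 to 4.15 TPM in the inhibitor groups, and neighbours in that order overlapped within 1 SD. In untreated libraries Cd22 stood level with Cd79a, at 1.93 ± 0.943 TPM. Blnk was lowest in all 3 groups, at 0.847 ± 0.155 TPM in anti-IL-1b, 1.04 ± 0.336 in MCC950 and 0.0567 ± 0.0666 in untreated libraries.

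**Figure D2:**
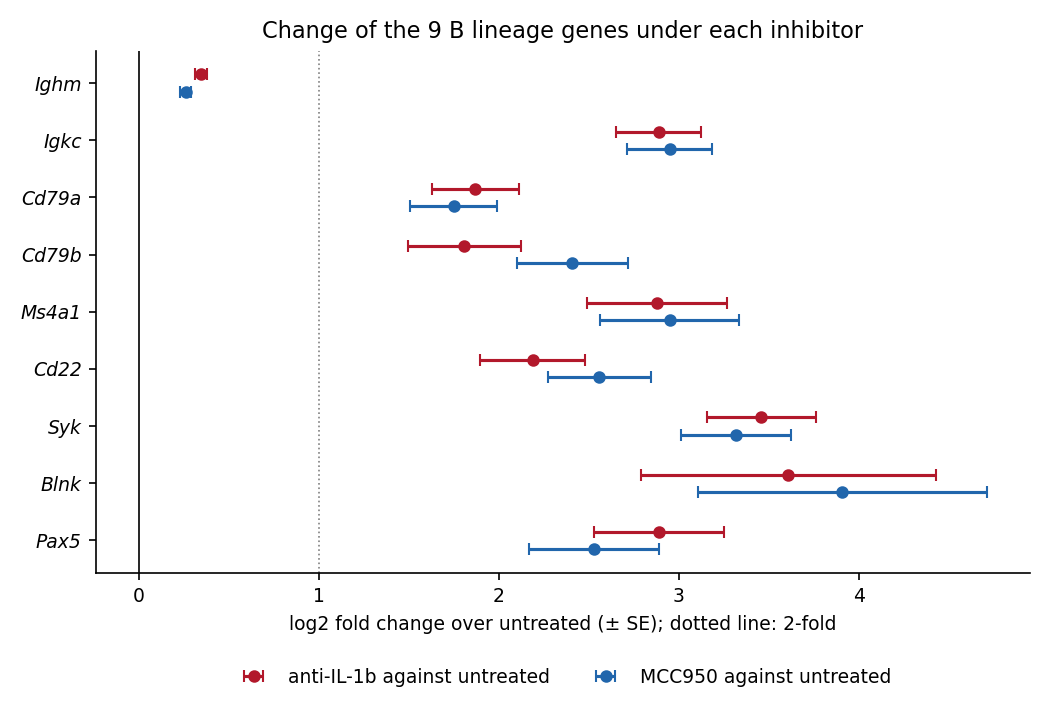
Log2 fold change (± SE) of each of the 9 genes over untreated libraries, with anti-IL-1b above MCC950, from the fit over all 9 libraries. All genes but Ighm lie past the dotted line of 2-fold, and the error bars of both inhibitors overlap for every gene but Ighm, for Cd79b barely.

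The inhibitors were also set against each other. In anti-IL-1b against MCC950, 0 of 9 genes passed the threshold by edgeR's quasi-likelihood test, against 13.2% of genes tested (6.12% higher and 7.11% lower). Of the 9, 2 had an unadjusted p under 0.05, and DESeq2 called 1, Ighm. Cd79b was lower in anti-IL-1b in all 3 libraries, with a log2 fold change of -0.60 ± 0.28 and an adjusted p of 0.16. A like lack of overlap with anti-IL-1b lower was seen in 15.4% of genes tested. Ighm was higher in anti-IL-1b without overlap, with a log2 fold change of 0.086 ± 0.032 and an adjusted p of 0.0706, and 14.0% of genes tested were higher without overlap. For the other 7 genes the log2 fold change lay between -0.37 (Cd22, SE 0.25) and 0.36 (Pax5, SE 0.31). A p that misses the threshold does not show that the inhibitors act alike on them.

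Of the other genes of B cells, 77 in 7 lists were in the files and 62 were tested. In anti-IL-1b against untreated 35 rose, 7 fell and 20 did not pass, with a median log2 fold change of 0.95, where 15.4% of all genes tested rose and 18.5% fell. In MCC950 against untreated 40 rose, 6 fell and 16 did not pass, with a median of 0.98, where 17.7% of all genes tested rose and 19.1% fell. These shares are the background for each list below as well. Most of the genes that rose were scarce. Of 43 with a mean under 20 CPM, a level chosen after the values were seen, 30 rose and 1 fell in anti-IL-1b and 32 rose and 0 fell in MCC950, beside the 12.7% and 11.6% of genes under 10 CPM that rose in anti-IL-1b and in MCC950. Of these 43, 26 did not reach 0.577 CPM in all 3 untreated libraries and passed the filter with the help of the inhibitor libraries, so that a rise among them is in part built in. Of the other 17, 8 rose in anti-IL-1b and 9 in MCC950. Of 19 genes at or over that level, 5 rose and 6 fell in anti-IL-1b and 8 rose and 6 fell in MCC950.

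**Figure D3:**
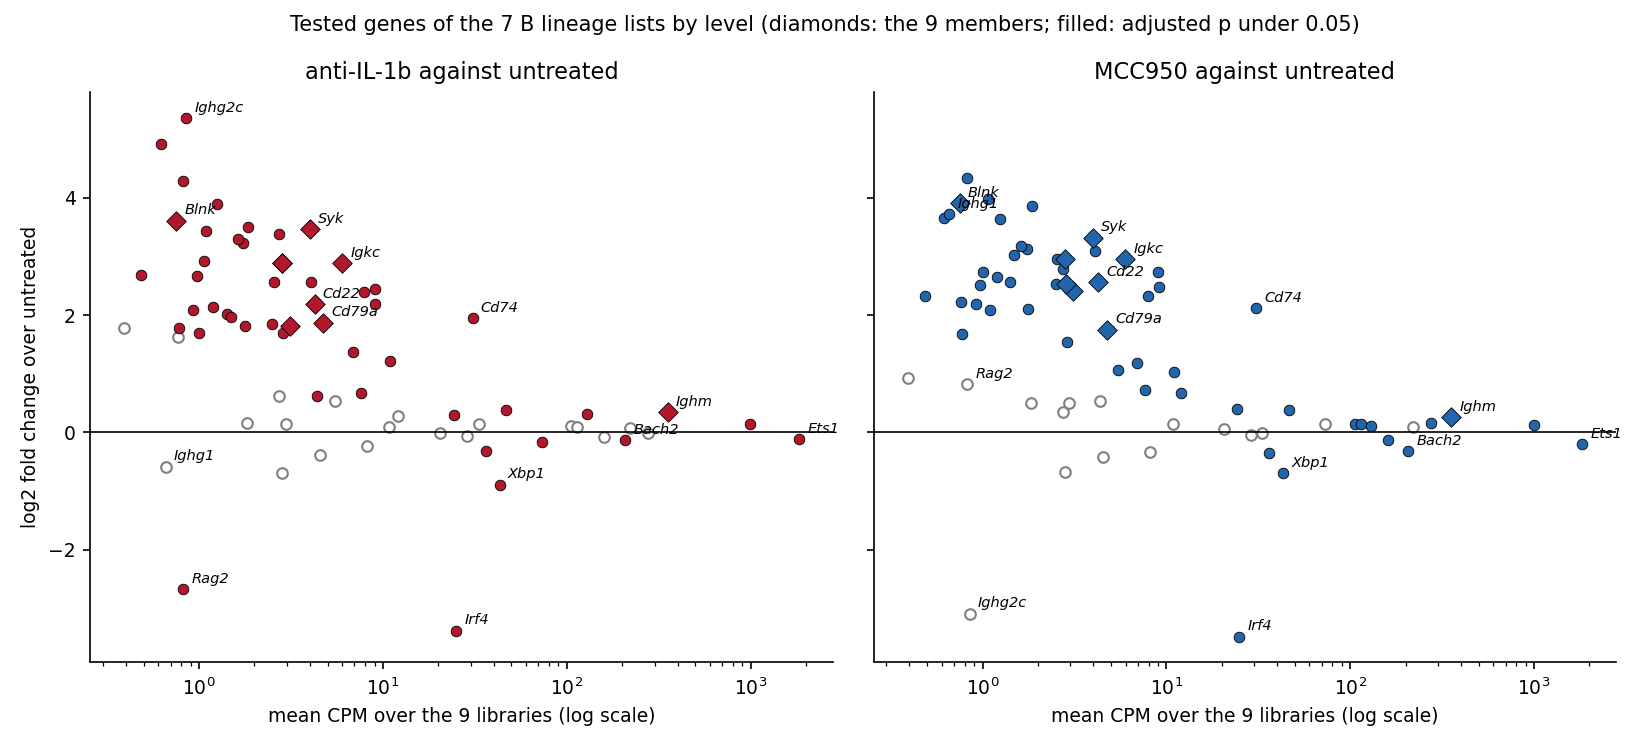
Log2 fold change over untreated libraries against the mean CPM over the 9 libraries (log scale) for the tested genes of the 7 B lineage lists, with diamonds for the 9 genes and filled symbols for an adjusted p under 0.05. Scarce genes lie mostly above 0, and the abundant ones lie on both sides of 0, with Irf4 and Xbp1 well below and Cd74 well above.

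Among receptor chains, 7 of 7 tested genes rose under each inhibitor, the 4 chains described above among them. Iglc2 and Iglc3 averaged 0.198 and 0.0368 CPM in untreated libraries. These 2 passed the filter on low counts with the help of the inhibitor libraries, so that their rise is in part built in. Iglc1, at 0.147 CPM in anti-IL-1b, 0.259 CPM in MCC950 and 0.153 CPM in untreated libraries, was too scarce to be tested. Ighd, the delta heavy chain of mature naive B cells, had 166, 165 and 108 counts in anti-IL-1b, 115, 169 and 154 in MCC950 and 62, 100 and 36 in untreated libraries. Among coreceptors and surface proteins, 11 of 15 rose in anti-IL-1b and 10 of 15 in MCC950, and 0 fell in either. Ms4a1 and Cd22, described above, are counted among those that rose. Fcer2a, the low-affinity IgE receptor CD23 of follicular B cells, averaged 4.68 ± 0.762 CPM in anti-IL-1b, 3.10 ± 0.565 CPM in MCC950 and 0.433 ± 0.219 CPM in untreated libraries. It rose in anti-IL-1b (adjusted p = 2.6e-09) and in MCC950 (adjusted p = 2.03e-07) by edgeR's quasi-likelihood test. Fcer2a too passed the filter with the help of the inhibitor libraries, so that its rise is in part built in.

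Of 16 signalling genes, 7 rose and 1 fell in anti-IL-1b (all genes 15.4% and 18.5%). In MCC950, 12 rose and 2 fell (all genes 17.7% and 19.1%). Syk and Blnk, described above, are counted among those that rose. The kinase Lyn, which phosphorylates the Cd79 chains, rose by 3.50 ± 0.55 in anti-IL-1b (adjusted p = 2.36e-06) and by 3.86 ± 0.54 in MCC950 (adjusted p = 2.75e-07) on the log2 scale. Plcg2, the phospholipase that Blnk brings to Syk, rose by 3.22 ± 0.48 in anti-IL-1b (adjusted p = 1.07e-06) and by 3.12 ± 0.48 in MCC950 (adjusted p = 1.68e-06). Pik3cd, a lipid kinase subunit that T cells use as well, stood at 1027 ± 14.9 CPM in anti-IL-1b, 1021 ± 12.4 CPM in MCC950 and 931 ± 16.2 CPM in untreated libraries. It rose by 0.14 in anti-IL-1b (adjusted p = 2.36e-05) and by 0.13 in MCC950 (adjusted p = 4.74e-05) on the log2 scale. The change was thus large in the scarce Lyn and Plcg2 and small in the abundant Pik3cd. In untreated libraries Lyn averaged 0.209 CPM and Plcg2 0.269 CPM. Both passed the filter on low counts with the help of the inhibitor libraries, so that their rise is in part built in.

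Of 14 transcription factors, 9 rose and 2 fell in anti-IL-1b (all genes 15.4% and 18.5%). In MCC950, 10 rose and 2 fell (all genes 17.7% and 19.1%). Pax5, described above, is counted among those that rose. Pou2af1, the coactivator of Oct factors at the octamer, averaged 14.3 ± 2.38 CPM in anti-IL-1b, 12.5 ± 1.79 CPM in MCC950 and 6.15 ± 0.857 CPM in untreated libraries and rose in anti-IL-1b (adjusted p = 9.24e-08) and in MCC950 (adjusted p = 2.34e-06). Ets1 and Bach2, which naive T cells express strongly too, fell with TMM scaling, but in anti-IL-1b the fall was lost with library totals (Ets1 0.0076, adjusted p = 0.817, and Bach2 -0.0080, adjusted p = 0.888), and that of Bach2 also with upper-quartile scaling (-0.085, adjusted p = 0.0724). Ets1 fell by 0.12 in anti-IL-1b (adjusted p = 3.71e-05) and by 0.21 in MCC950 (adjusted p = 6.28e-10) on the log2 scale, and Bach2 fell by 0.14 in anti-IL-1b (adjusted p = 0.00348) and by 0.32 in MCC950 (adjusted p = 2.26e-09). Scaling by library totals moves the all-gene median to 0.13 in anti-IL-1b and 0.125 in MCC950. Zap70 passes the threshold in anti-IL-1b with library totals (0.21, adjusted p = 3.51e-05) and with upper-quartile scaling (0.13, adjusted p = 0.00725).

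Of 7 tested genes of antibody-secreting cells, 3 rose and 2 fell under each inhibitor, where 15.4% of all genes rose and 18.5% fell in anti-IL-1b and 17.7% rose and 19.1% fell in MCC950. Irf4, which is also induced by T cell receptor signalling, averaged 6.06 ± 1.05 CPM in anti-IL-1b, 5.64 ± 0.34 CPM in MCC950 and 63.1 ± 3.57 CPM in untreated libraries. It fell by 3.38 on the log2 scale in anti-IL-1b (adjusted p = 2.85e-25) and by 3.48 in MCC950 (adjusted p = 8.12e-26). Xbp1, a factor of the unfolded protein response, fell by 0.89 in anti-IL-1b (adjusted p = 3.88e-12) and by 0.70 in MCC950 (adjusted p = 9.33e-10). Jchain, which joins IgM and IgA into polymers, rose by 3.89 ± 0.64 in anti-IL-1b (adjusted p = 4.75e-06) and 3.64 ± 0.64 in MCC950 (adjusted p = 1.35e-05). At 0.127 CPM in untreated libraries, Jchain passed the filter with the help of the inhibitor libraries. Its rise is in part built in. Of the early B cell genes 2 of 8 were tested, and Rag2, a recombinase subunit, fell in anti-IL-1b (log2 fold change -2.67 ± 0.84, adjusted p = 0.0115) with means of at most 1.49 CPM in any group.

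Of 10 genes of MHC class II presentation, which B cells share with dendritic cells and macrophages, 7 rose and 1 fell in anti-IL-1b, and 7 rose and 0 fell in MCC950. Cd74, the invariant chain, averaged 38.6 ± 0.805 CPM in anti-IL-1b, 43.5 ± 4.29 CPM in MCC950 and 9.97 ± 2.34 CPM in untreated libraries. H2-Aa, the alpha chain of I-A, averaged 11.2 ± 0.872 CPM in anti-IL-1b, 13.8 ± 1.2 CPM in MCC950 and 2.04 ± 0.675 CPM in untreated libraries. H2-Ab1 and H2-Eb1 rose by 2.19 ± 0.20 and 2.39 ± 0.21 in anti-IL-1b and by 2.47 ± 0.20 and 2.33 ± 0.21 in MCC950 on the log2 scale.

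Of the constant regions of switched isotypes, Ighg2c and Ighg1 differed between the inhibitors. All those shown were chosen by their values, Ighg2c by the size of its p. Near-identical segments of these genes can share reads. Ighg2c, the constant region of IgG2c, was counted 45, 35 and 40 times in anti-IL-1b libraries, 0, 0 and 0 times in MCC950 libraries and 1, 2 and 0 times in untreated libraries. Ighg1 was counted 4, 0 and 0 times in anti-IL-1b libraries, 42, 33 and 20 times in MCC950 libraries and 3, 1 and 3 times in untreated libraries. In anti-IL-1b against MCC950 the adjusted p was 4.29e-07 for Ighg2c and 0.000296 for Ighg1, in opposite directions, by edgeR's quasi-likelihood test. Ighg2c passed the filter on low counts through the anti-IL-1b libraries and Ighg1 through the MCC950 libraries, where each is high. A difference between the inhibitors is thus in part built in. In C57BL/6 mice IgG2c is an isotype favoured by interferon-gamma and IgG1 one favoured by IL-4. Igha, with 1, 0 and 0 counts in anti-IL-1b, 2, 1 and 0 in MCC950 and 9, 12 and 6 in untreated libraries, was too scarce to be tested. So were Ighg2b and Ighg3.

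Among the 255 segments, 2 kappa V segments picked for their counts were nearly or wholly limited to 1 inhibitor group. Igkv5-43 had 10, 28 and 17 counts in anti-IL-1b libraries, 0, 0 and 2 in MCC950 libraries and 0, 0 and 0 in untreated libraries. Igkv4-53 had 0, 0 and 0 counts in anti-IL-1b libraries, 14, 6 and 9 in MCC950 libraries and 0, 0 and 0 in untreated libraries. In all, 9 segments had counts in all 3 anti-IL-1b libraries and 2 of these in no other library, 13 had counts in all 3 MCC950 libraries and 3 of these in no other, and 0 had counts in all 3 untreated libraries. Ighv1-26, Igkv1-110 and Iglv1 had counts in all 3 libraries of both inhibitors. Over all segments, 2 anti-IL-1b libraries shared 11 to 12 segments and 2 MCC950 libraries 15 to 22, while an anti-IL-1b and an MCC950 library shared 8 to 17, a range that overlaps both. The strongest single segment held 13.7% to 19.6% of the segment counts of an anti-IL-1b library, 6.47% to 9.8% in MCC950 and 20% to 24% in untreated libraries. In an untreated library all segments together had at most 25 counts. V segments belong to families of near copies, so a count may belong to a relative. The labels do not say whether the 3 libraries of a group share mice.

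**Figure D4:**
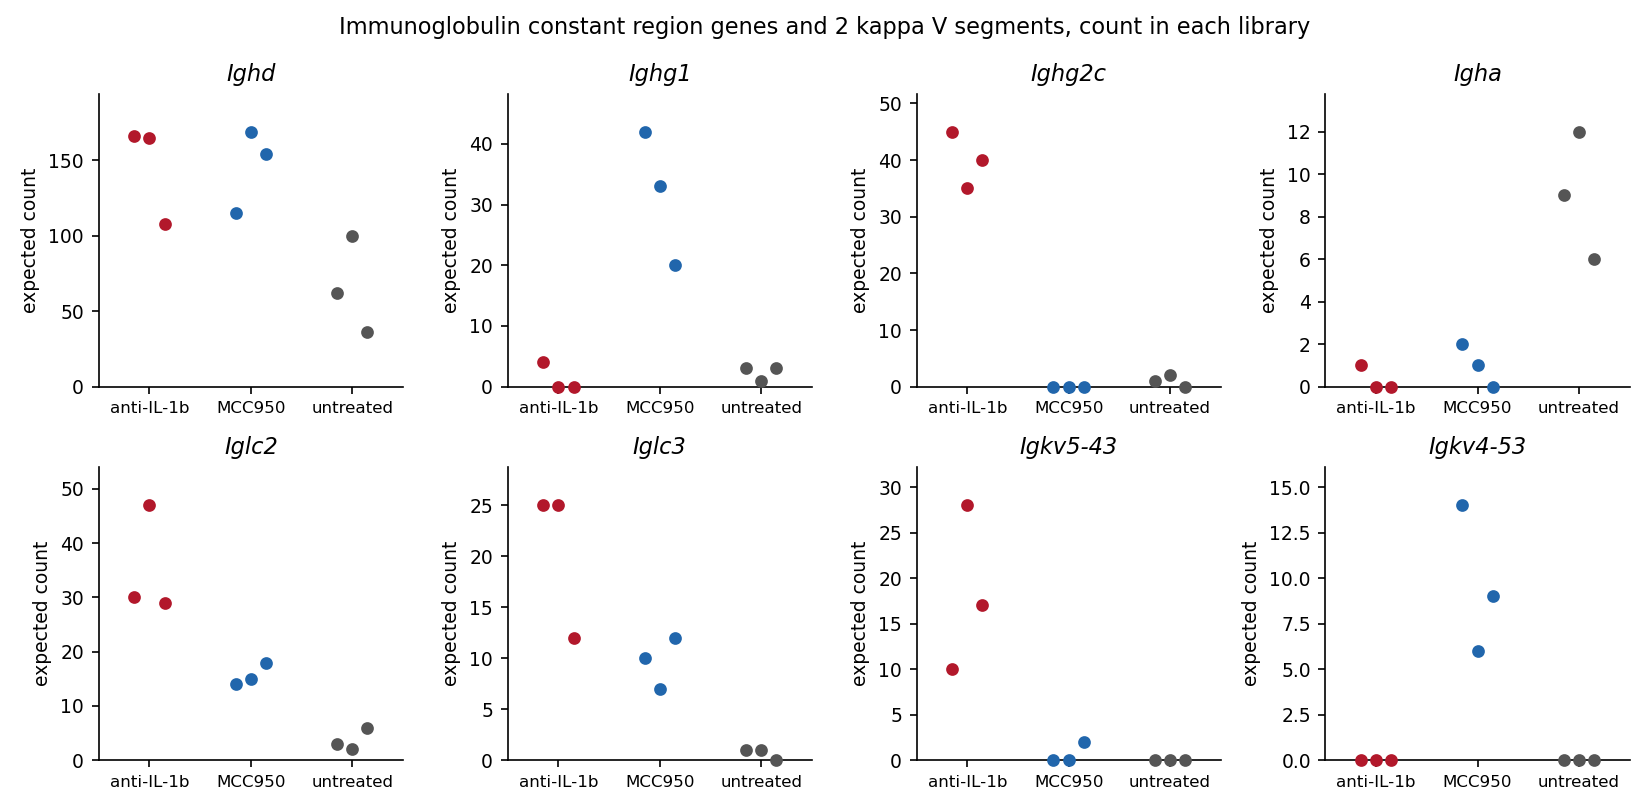
Expected counts (linear axes from 0) of 6 immunoglobulin constant region genes and 2 kappa V segments in each library of the anti-IL-1b, MCC950 and untreated groups. Ighg2c and Igkv5-43 are high in all 3 anti-IL-1b libraries, Ighg1 and Igkv4-53 in all 3 MCC950 libraries, and Igha in the untreated ones.

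The genes most like the mean pattern of the 9 over all 9 libraries were sought among the other tested genes by the root mean square difference of centred log2(CPM + 0.5). The closest was Cybb, the catalytic subunit of the phagocyte NADPH oxidase, at 0.132, with 2.55 CPM in anti-IL-1b, 2.66 CPM in MCC950 and 0.348 CPM in untreated libraries. Mpeg1 followed at 0.195 and Jchain at 0.202. Scarna2 (0.209), Tanc1 (0.212) and Scd1 (0.216) came next. The 9 genes themselves differed from their own mean by 0.197 (Cd79a) to 0.711 (Ighm).

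Markers of other cells moved beside the 9 genes. The 10 neutrophil genes summed to 32.7 to 34.8 CPM in anti-IL-1b, 16.8 to 19.2 CPM in MCC950 and 1.1 to 1.33 CPM in untreated libraries, where 5 of the 10 were at 0. The 6 red cell genes summed to 4.38 to 5 CPM in anti-IL-1b, 5.91 to 9.68 CPM in MCC950 and 0.122 to 0.445 CPM in untreated libraries, where 3 were at 0. The 10 monocyte and macrophage genes summed to 31.4 to 34.7 CPM in anti-IL-1b, 35.5 to 40.4 CPM in MCC950 and 20.2 to 27.2 CPM in untreated libraries. For the 10 CD8 T and NK cell genes the sum was 96.3 to 106 CPM in anti-IL-1b, 99.2 to 105 CPM in MCC950 and 66.4 to 73.8 CPM in untreated libraries. The 9 dendritic cell genes gave 38.3 to 39.2 CPM in anti-IL-1b, 41.5 to 49.2 CPM in MCC950 and 33.4 to 34.7 CPM in untreated libraries. The 5 platelet genes gave 2.73 to 4.19 CPM in anti-IL-1b, 1.81 to 3.64 CPM in MCC950 and 2.01 to 3.35 CPM in untreated libraries. The sums thus lay above the untreated ones for all these lists but the platelet one, although a few abundant genes carry them and not every gene moved alike. Of 8 tested neutrophil genes 8 rose in anti-IL-1b and 7 in MCC950, and Cxcr2 did not pass there (0.735 CPM in MCC950 against 1.04 CPM in untreated libraries). Of 6 tested monocyte and macrophage genes 3 rose and 1, Cd68, fell in anti-IL-1b (log2 fold change -1.29, adjusted p = 0.0157), and 4 rose in MCC950. Of 7 tested CD8 T and NK cell genes 4 rose and 1, Prf1, fell in anti-IL-1b (log2 fold change -0.32, adjusted p = 0.00118), and 3 rose in MCC950. Cd8a was among those that rose, at 19.3 ± 2.69 CPM in anti-IL-1b, 19.6 ± 1.07 CPM in MCC950 and 0.969 ± 0.27 CPM in untreated libraries. Its log2 fold change was 4.33 in anti-IL-1b and 4.35 in MCC950. Of 4 tested dendritic cell genes 2 rose under each inhibitor, and most of that sum was Bst2 and Ccr9. All 4 tested red cell genes rose under both. Over all genes tested, 15.4% rose and 18.5% fell in anti-IL-1b, and 17.7% rose and 19.1% fell in MCC950. The tested red cell genes, and the tested neutrophil genes but Cxcr2, were at or near 0 in untreated libraries. They passed the filter with the help of the inhibitor libraries, so that a rise among them is in part built in.

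The 14 T cell genes summed to 7607 to 7760.2 CPM in anti-IL-1b, 7601 to 7751 CPM in MCC950 and 7766 to 7830.4 CPM in untreated libraries. The 12 heat shock and immediate early genes, which handling of cells raises, fell under both inhibitors and summed to 3104 to 3282 CPM in anti-IL-1b, 3564 to 3693 CPM in MCC950 and 16142 to 16342 CPM in untreated libraries. All 12 passed the threshold in both comparisons. The part of these differences in the levels of the 9 genes was not tested.

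**Figure D5:**
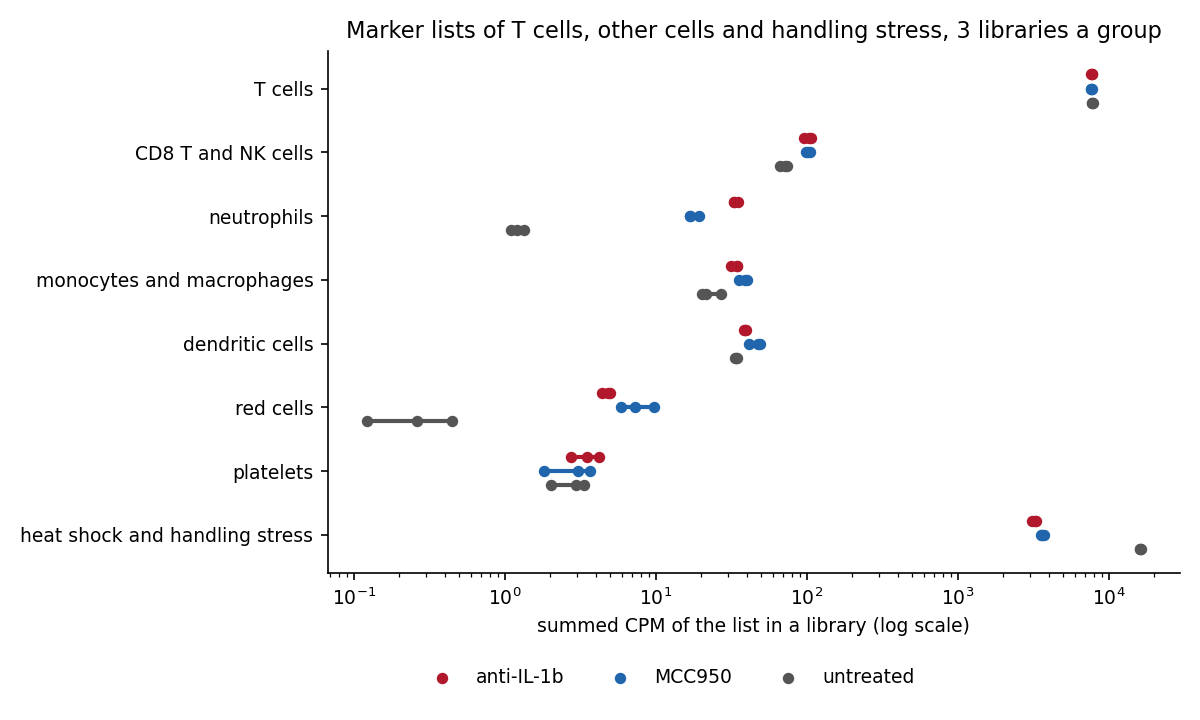
Summed CPM (log scale) of each marker list in the 3 libraries of each group, with anti-IL-1b above MCC950 and untreated, and lines from the lowest to the highest library. The untreated group lies to the left for neutrophil and red cell genes and to the right for heat shock and handling stress genes.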

How the data were processed

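Poly(A) RNA of 9 libraries in 3 groups of 3 was analysed, grouped by the labels alone. Per the submitters' processing notes the authors used STAR and RSEM with the mm10 build, and versions are not given in the sources used here. The deposited expected counts are RSEM's estimated counts per gene with no scaling. In the deposited TPM columns, named so in the file headers, the authors' RSEM run set each library to 1 total after allowing for effective length. Whether counting used strand is not given, so genes with antisense partners are uncertain.

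Gene IDs were matched to GENCODE M21, and 99.4% of 55487 had a symbol. Expected counts were rounded and tested with edgeR 4.0.16 in R 4.3.3 (TMM, filterByExpr, robust quasi-likelihood fit over the 9 libraries, two-sided). P-values were Benjamini-Hochberg adjusted over 13374 genes, with a threshold of 0.05. The steps were checked on simulated data. Replicates differed beyond sampling noise (chi-square per degree of freedom 3.74 to 5.26). Depth was 14775375 to 21394797 counts. Counting intervals (95%) cover counting error only.

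The 9 genes and the lists were chosen with earlier results of these data known. Named beside the 9 were up to 4 genes per B lineage list with the smallest p, the 6 genes most like the mean pattern, and T cell counterparts. Others named were chosen after their values were seen. One gene that this rule names is not reported here. Alternatives were other scalings, filters, thresholds and sample sets, DESeq2 1.42.0, limma 3.58.1 (limma-voom on counts, and log2 of TPM with a pseudocount of 1 or 0.1), the replicate number as a block, and leaving out each library.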

Additional observations from a re-analysis of the deposited data

How the results depend on the processing

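The count of the 9 genes past the threshold was 9 in anti-IL-1b against untreated and 9 in MCC950 against untreated under every alternative but the TPM fits. With limma on log2(TPM + 1) or log2(TPM + 0.1), 8 were called in anti-IL-1b, without Cd22, and 7 in MCC950, without Cd22 and Pax5, and the cause was not tested. With each library left out in turn the counts stayed at 9 and 9. In anti-IL-1b against MCC950 the count of 0 became 1, Ighm, with RLE scaling, upper-quartile scaling, library totals, DESeq2 and both TPM fits, and it was 0 with each library left out. DESeq2 gave no adjusted p for 4 genes there. Log2 fold changes of that comparison turned round for Ms4a1 (limma-voom 0.018, log2(TPM + 1) 0.048, log2(TPM + 0.1) 0.082, without anti-IL-1b replicate 3 0.077, without MCC950 replicate 1 0.35), for Blnk (without MCC950 replicate 3 0.079) and for Igkc (without MCC950 replicate 1 0.097). With each library left out in turn these ran from -0.27 to 0.35 for Ms4a1, from -0.56 to 0.079 for Blnk and from -0.17 to 0.097 for Igkc. None of these was past the threshold. Of 590 values of single genes under alternatives, 571 kept direction and call, 6 lost the call, 6 gained it and 7 changed sign. The 590 include settings that can hardly move a log2 fold change. These are the stricter threshold and fits without a library of the group outside the comparison. Other B lineage genes that rose numbered 28 to 43 in anti-IL-1b, against 35, and 32 to 43 in MCC950, against 40. With the replicate number as a block the counts of the 9 genes were 9, 9 and 0. Same-numbered libraries deviated together with correlations of -0.0404 to 0.295, and those of number 2 were highest, at 0.228 to 0.295. A library correlated best with its own number in 10 of 18 cases. These values do not settle whether the numbers pair the samples. With library totals 3919 of 5264 calls were higher in anti-IL-1b and 4005 of 5593 in MCC950, against 2066 of 4545 in anti-IL-1b and 2370 of 4923 in MCC950 with TMM. Depth limits Blnk most, with 4 counts over the untreated libraries.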

Other observations

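Ratios of kappa to lambda and of Cd79a to Cd79b set the MCC950 libraries apart. The levels of Cd79b and Iglc2 also did not overlap between MCC950 and anti-IL-1b libraries, but neither passed the threshold. By edgeR's quasi-likelihood test the adjusted p was 0.16 for Cd79b and 0.0766 for Iglc2. Of all genes tested, 15.4% were lower and 14.0% higher in anti-IL-1b without overlap. The ratios were computed after the values were seen and were not tested. The ratio of kappa (Igkc) to summed lambda constant region counts (Iglc1, Iglc2 and Iglc3) was 2.72, 1.69 and 2.64 in anti-IL-1b libraries, 6.17, 5.35 and 4.2 in MCC950 libraries and 3, 2.4 and 3.29 in untreated libraries. The MCC950 libraries were above all others, and the untreated ratios rest on few counts. Iglc2 had 30, 47 and 29 counts in anti-IL-1b, 14, 15 and 18 in MCC950 and 3, 2 and 6 in untreated libraries, and it shares near-identical sequence with Iglc3. The ratio of Cd79a to Cd79b in TPM was 1.55, 1.46 and 1.82 in anti-IL-1b libraries, 1.01, 0.866 and 0.955 in MCC950 libraries and 2.06, 1.27 and 1.24 in untreated libraries. Here too the MCC950 libraries stood apart, below all others.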
